A study of Mus musculus with 9 samples.

Results

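The genes described here are 46 mouse transcription factors that specify lineages arising after the embryonic stem cell state. They were chosen by name, and they make up 46 of the 21951 protein-coding genes in the GENCODE M21 annotation. By role they fall into 5 regulators of the primitive streak and organizer (T, Eomes, Mixl1, Gsc and Lhx1), 5 of endoderm (Gata4, Gata6, Sox17, Foxa1 and Foxa2), 3 of trophoblast, blood or posterior body (Cdx2, Gata2 and Gata3), 24 of the nervous system and 9 of mesoderm and organs. A gene was counted as listed when a called interaction had a bin within 5 kb of one of its transcript starts, so pairs of a neighbouring or antisense transcript that starts in the same bin count for it too.

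The lists come from MNase HiChIP, in which chromatin cut with micrococcal nuclease is ligated in crosslinked nuclei and DNA ends joined in space are enriched with an antibody. All 9 libraries were E14 mouse embryonic stem cells with the genotype CTCF AID, grown without feeders on gelatin in serum-free medium with LIF and the inhibitors PD0325901 and CHIR99021. AID is the auxin-inducible degron, which lets the auxin IAA trigger loss of a tagged protein. The 4 groups were H3K27ac without IAA (2 libraries), H3K27ac after 12 h of IAA (2), CTCF without IAA (2) and RAD21 without IAA (3), and the untreated controls carry the tag as well. The labels do not say whether the line is 1 clone or whether the libraries came from separate cultures. Each group is represented by 1 list pooled over its libraries, so values carry no error between replicates. CTCF protein, CTCF contacts and RAD21 contacts after IAA were not analysed here.

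H3K27ac, acetylated lysine on histone H3, marks active promoters and enhancers, and HiChIP for it enriches contacts among them. CTCF binds DNA at a directional motif, and cohesin, whose subunit RAD21 is, holds loops that commonly end at convergent CTCF sites. In embryonic stem cells most genes of this kind are silent or barely transcribed, and their CpG-rich promoters are a textbook place of Polycomb repression with bivalent histone marks. Removing CTCF asks which H3K27ac contacts are still called without its loops.

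The lists held 36274 untreated H3K27ac pairs, 28210 H3K27ac pairs after IAA, 49630 CTCF pairs and 23630 RAD21 pairs. Bins were 2000 bp for H3K27ac and 1000 bp for CTCF and RAD21. The authors' models rested on 12551236, 14629323, 2839756 and 1517698 contacts, and the median listed pair had 13 or 14 contacts in each list. At this depth a missing pair is a pair that was not called, not a contact shown to be absent. A weak contact in many cells and a strong contact in few cells cannot be told apart in such bulk lists. Of the 16 stem cell markers examined, 15 had untreated H3K27ac pairs, with a median of 928 contacts, and the same number had pairs after IAA, with a median of 577. Among 8 fibroblast markers, Col1a1 alone had an untreated H3K27ac pair, with 9 contacts. Of 8 primitive endoderm markers, Lama1 and Sparc had H3K27ac pairs in both lists.

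Few of the later-lineage factors had an H3K27ac pair, while CTCF pairs were listed at a larger number of them. Untreated H3K27ac pairs were listed at 8 of the 46 (17.4%), against 38.5% of protein-coding genes. CTCF pairs were listed at 25 (54.3%), against 42.5%. RAD21 pairs were listed at 13 (28.3%), against 30.9%, a share near that of all genes. That order turned under 3 of 5 other ways of counting: 43.5% against 38.9% with a window of 10 kb, 28.3% against 25% with the gene's outermost start alone and 26.1% against 25.4% with a q-value of 0.01 or less. After IAA, H3K27ac pairs were listed at 5 (10.9%), against 35.1%. No list gives values per library, so none of these differences could be set against a spread between replicates.

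The lower H3K27ac share and the higher CTCF share did not hold equally well across ways of counting. The former held under each of the 5 other ways of counting tried, with 3 to 9 members listed without IAA. The latter was gone in 2 of them. With pairs of a q-value of 0.01 or less, 17 members (37.0%) had CTCF pairs against 36.5% of protein-coding genes. Counting only the bin that holds a start, 11 members (23.9%) had one against 25.8%. With at least 10 contacts the shares were 41.3% and 38.1%. With a window of 10 kb they were 58.7% and 50.5%, and with the gene's outermost start alone 47.8% and 36.5%.

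**Figure D1:**
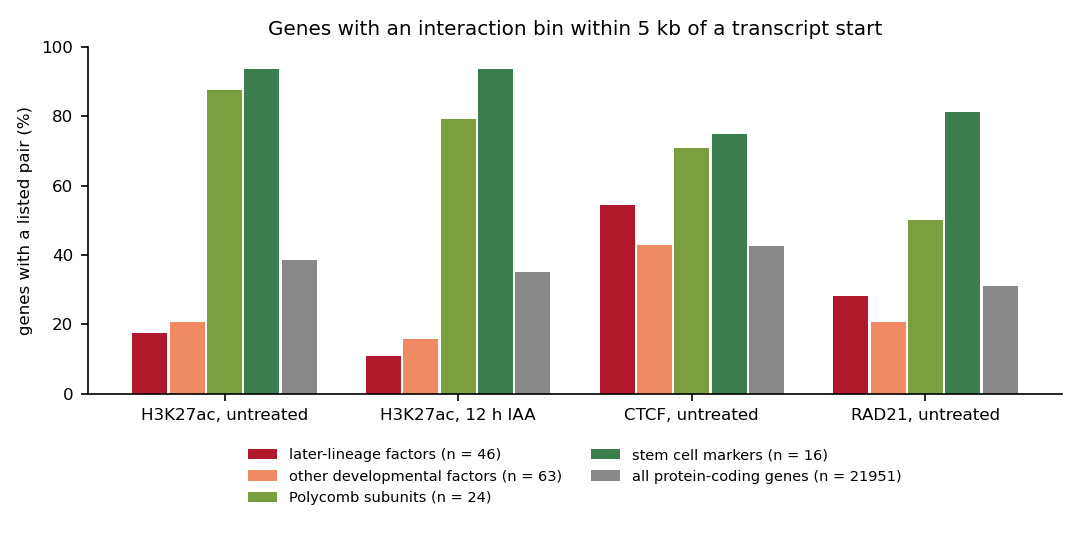
Share of genes with a listed pair within 5 kb of a transcript start, in percent on the vertical axis, for each of the 4 interaction lists and 5 gene lists. Each bar is a share of the genes in a list and has no error bar because each interaction list is pooled; the later-lineage factors sit at 17.4% for untreated H3K27ac and 54.3% for CTCF, against 38.5% and 42.5% of all protein-coding genes.

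Other developmental factors of the same families stood on the same side for H3K27ac. Of 63 such genes, 13 (20.6%) had untreated H3K27ac pairs, 10 (15.9%) had pairs after IAA, 27 (42.9%) had CTCF pairs and 13 (20.6%) had RAD21 pairs. Their CTCF share was thus close to that of all protein-coding genes, and the excess among the 46 was not seen in these relatives. Of 24 genes for Polycomb subunits, which are themselves expressed in stem cells, 21 (87.5%) had untreated H3K27ac pairs and 17 (70.8%) had CTCF pairs. These are counts beside each other, with no test between the lists.

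Distances gave the same contrast without a fixed window. The median later-lineage start lay 115 kb from the nearest untreated H3K27ac bin, against 34.1 kb for protein-coding genes. After IAA the medians were 242 kb and 47.0 kb. For CTCF the order was the other way, with medians of 3.11 kb and 9.55 kb. For RAD21 they were 14.3 kb and 19.8 kb. Taking each gene's nearest CTCF bin, that of Gata4 lay just inside the window, 4.25 kb from a start, and that of Olig2 just outside it, 6.46 kb away. For untreated H3K27ac the corresponding genes were Sox1 at 3.30 kb and Pax2 at 8.05 kb, and after IAA Gata4 at 0.73 kb and Sox1 at 6.71 kb. For RAD21 they were Foxc1 at 4.37 kb and Gata4 at 5.61 kb.

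**Figure D2:**
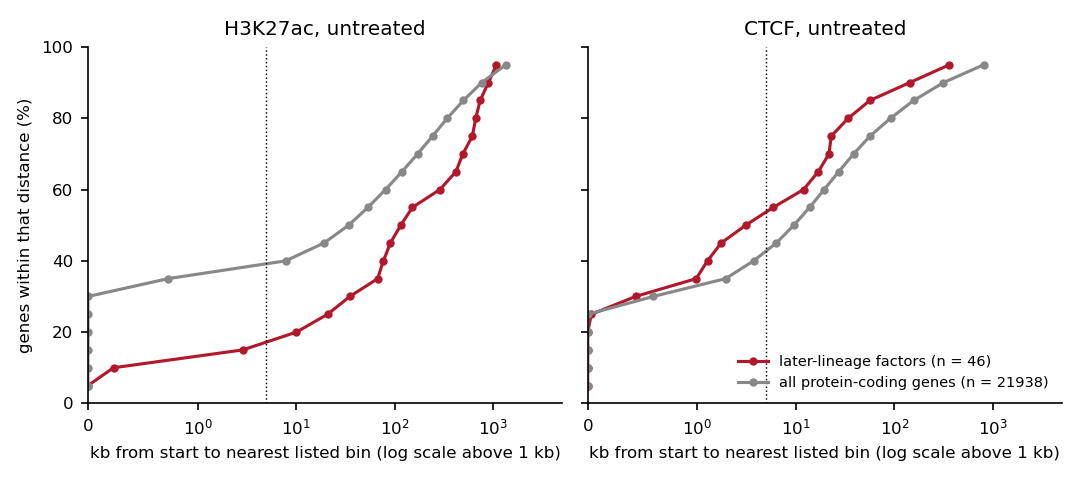
Cumulative share of genes, in percent, against the distance in kb from the nearest transcript start to the nearest listed bin (log scale above 1 kb), for untreated H3K27ac and untreated CTCF. Points stand at every 5% of the 46 later-lineage factors or of the 21938 protein-coding genes on chromosomes with listed pairs, and the dotted line marks 5 kb; at 50% of genes the H3K27ac distance is 115 kb against 34.1 kb, and the CTCF distance 3.11 kb against 9.55 kb.

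The marks combined in an uneven way over the 46 genes. CTCF pairs without an H3K27ac pair in either list were found at 15 members (32.6%), against 14.8% of protein-coding genes. These were T, Sox17, Foxa1, Foxa2, Gata2, Neurog1, Neurog2, Nkx2-1, Lhx3, Lhx9, Dlx5, Tbx1, Foxc1, Pax2 and Pax9. CTCF pairs without RAD21 pairs were at 13 members (28.3%), against 15% of protein-coding genes. Both kinds together were at 12 (26.1%), against 27.5%. None of the combined shares in this paragraph was recounted under other settings. With a window of 10 kb, Cdx2, Gata4, Neurog2 and Otp of the 13 had RAD21 pairs, and Tbx5 gained a CTCF pair alone. With a q-value of 0.01 or less, Cdx2, Foxa1, Gata4, Lhx3, Lhx9, Nkx6-1, Pax9 and T had no CTCF pair. The RAD21 model also rested on fewer contacts, 1517698 against 2839756. RAD21 pairs without CTCF pairs were at En2 alone (2.17%, against 3.39%). No pair of any kind was listed at 18 members (39.1%), close to the 41.4% of all protein-coding genes. They were Mixl1, Gata6, Gata3, Pax6, Six3, Nkx2-5, Olig2, Isl1, Dlx6, En1, Irx3, Irx5, Sox9, Pax3, Pax7, Tbx4, Tbx5 and Six2.

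By lineage, untreated H3K27ac pairs were at 3 of the 5 streak and organizer genes, at 1 of the 3 trophoblast, blood and posterior genes and at 4 of the 24 neural genes. They were at none of the 5 endoderm genes and none of the 9 mesoderm and organ genes. CTCF pairs were at 3 streak, 4 endoderm, 2 trophoblast, blood or posterior, 12 neural and 4 mesoderm and organ genes. RAD21 pairs were at 1, 1, 1, 7 and 3 genes in the same order. H3K27ac pairs after IAA were at 1 streak gene, 1 endoderm gene and 3 neural genes. Over all protein-coding genes the shares were 38.5% for untreated H3K27ac, 42.5% for CTCF, 30.9% for RAD21 and 35.1% for H3K27ac after IAA. Of the 3 streak genes with untreated H3K27ac pairs, Eomes and Lhx1 were not listed with a q-value of 0.01 or less or with at least 10 contacts. Groups this small were not tested against each other, and no lineage pattern is read from them.

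**Figure D3:**
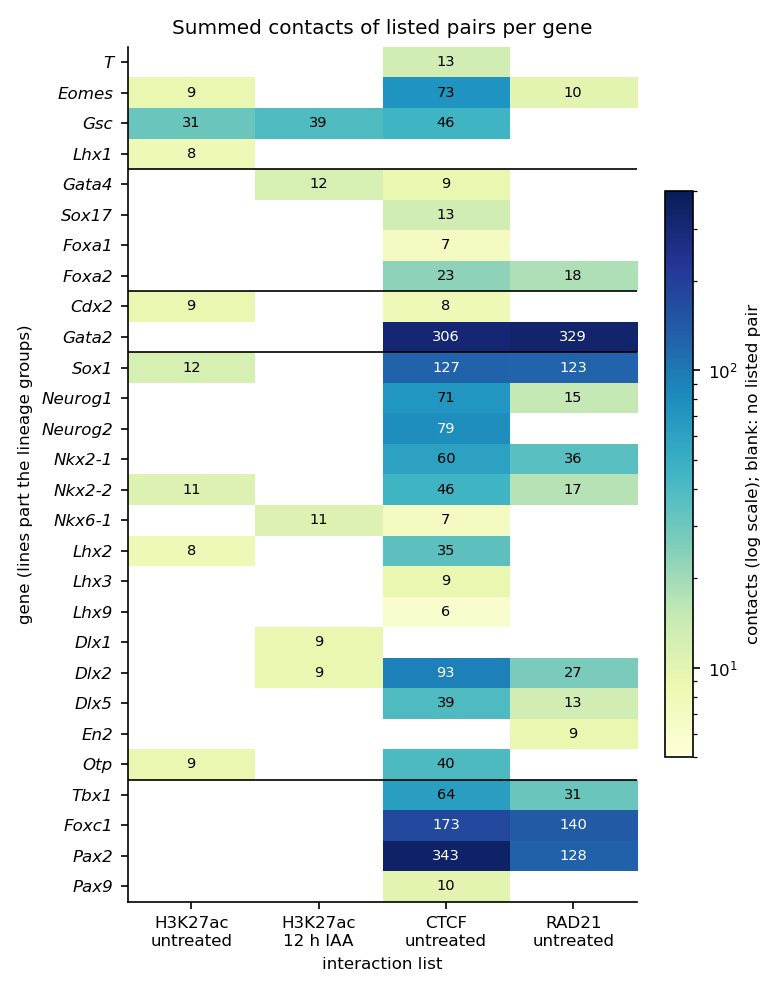
Summed contacts of the listed pairs at each of the 28 later-lineage factors with a pair in at least 1 list, with genes as rows grouped by lineage and the 4 lists as columns. Colour is on a log scale and blank means no listed pair; the H3K27ac columns run from 8 to 39 contacts, while the CTCF column reaches 343 at Pax2 and the RAD21 column 329 at Gata2.

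Among the streak genes, Gsc had the most contacts in both H3K27ac lists. Gsc encodes Goosecoid, a homeobox factor of the organizer. It had 3 untreated H3K27ac pairs with 10, 11 and 10 contacts, or 31 in all (exact 95% Poisson interval 21.1 to 44.0). Of the protein-coding genes with untreated pairs, 42.6% had fewer contacts. The pairs joined bins at chr12:104474001-104476000 and chr12:104472001-104474000, around the start, to bins at chr12:104448001-104450000 and chr12:104452001-104454000, which lie 20 to 26 kb downstream outside annotated genes. A start of the non-coding gene Gm10000 lies at the same Gsc bins, so the contacts cannot be given to one of the 2 genes. Intervals and limits of this kind cover counting error only, because amplified reads are not independent molecules.

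The other 7 members with an untreated H3K27ac pair had 1 pair each. Sox1, an early neural plate factor, had 12 contacts (6.20 to 21) between chr8:12390001-12392000 and a bin 6 kb upstream, both in the non-coding gene Sox1ot. Nkx2-2, a factor of the ventral neural tube, had 11 contacts (5.49 to 19.7) with a bin within 5 kb of a start of Xrn2, 176 kb away. That was the longest H3K27ac pair of the set, and the Nkx2-2 bin itself was not an H3K27ac peak. Cdx2, a factor of trophoblast and the posterior body, had 9 contacts with a bin 8 kb downstream. Eomes, a T-box factor of streak and trophoblast, had 9 contacts with a bin 10 kb downstream. Otp, a homeobox factor of the hypothalamus, had 9 contacts within its own gene. Lhx1, a LIM homeobox factor of the organizer, had 8 contacts with a bin within 5 kb of a start of Aatf, and Lhx2, a LIM homeobox factor of forebrain and eye, had 8 within its own gene. The intervals of these 7 counts overlap, so their order cannot be read.

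These H3K27ac pairs were short and rested on weakly covered bins. The 10 untreated member pairs had 8 to 12 contacts and a median span of 11 kb, against 26 kb for pairs at protein-coding starts. The median gene with untreated pairs had 3 pairs and 39 contacts, while the median member had 1 pair and 9 contacts. The deposited coverage of the 11 untreated H3K27ac bins at members ran from 366 to 1563, with a median of 686. At protein-coding starts the median was 1657, with quartiles of 1103 and 2769, and 6.03% of those bins lay below the member median. Coverage thus moved with the H3K27ac contact counts, and its part in them was not tested. Relative to the authors' model, the median ratio of observed to predicted contacts was 5.36 for the member pairs, against 5.53 at protein-coding starts. None of the 10 lay on the same 2000-bp bin pair as a CTCF or RAD21 pair. That allows a share of up to 30%, taken as 3 divided by the number of pairs. The shares at protein-coding starts were 7.05% and 6.01%.

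After IAA, Gsc alone kept H3K27ac pairs among the 8 genes that had them, a call that depends on the window. With 10 kb, Sox1 was listed in both H3K27ac lists as well, and counting only the bin that holds a start, Gsc was not listed after IAA. It had 3 pairs again, with 12, 11 and 16 contacts, or 39 in all (27.7 to 53.3). For 2 of the bin pairs the same pair was called in both lists. The pair between chr12:104474001-104476000 and chr12:104448001-104450000 had 10 contacts without and 12 with IAA. With counts scaled to the totals of all shared pairs, that was a log2 ratio of 0.29 (95% interval -1.04 to 1.66), with p = 0.675 in an exact two-sided binomial test and an adjusted p of 1 after Benjamini-Hochberg adjustment over 15551 shared pairs. The pair with chr12:104452001-104454000 had 10 and 16 contacts, a log2 ratio of 0.71 (-0.52 to 2.01), with an exact binomial p = 0.244 and an adjusted p of 1.

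Summed over both shared Gsc pairs, contacts went from 20 to 28, a log2 ratio of 0.51 with an interval of -0.36 to 1.42. Scaled by the authors' model totals instead, the ratio was 0.26. The interval reaches from below no change to more than a doubling, so neither stability nor a rise is shown at these counts. Among all 15551 shared pairs, 21 (0.135%) passed an adjusted p of 0.05, of which 15 (0.0965%) were higher after IAA and 6 (0.0386%) lower. That balance depends on the scaling: by model totals, which move every log2 ratio by -0.25, 60 pairs passed, 6 of them higher and 54 lower. Neither Gsc pair passed under either scaling, and with the totals of shared pairs 0 of them had an unadjusted p under 0.05. This test sets one pool of libraries against the other and cannot speak for the treatment. The coverage of the Gsc bin went from 1563 to 2045, a log2 ratio of 0.39, while the median over 16828 bins in both lists was 0.20. The coverage of its partner bins in the 2 shared pairs went from 1755 to 2465 and from 2776 to 3996. Coverage was thus higher along with the contacts, and its part in the ratio was not tested.

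**Figure D4:**
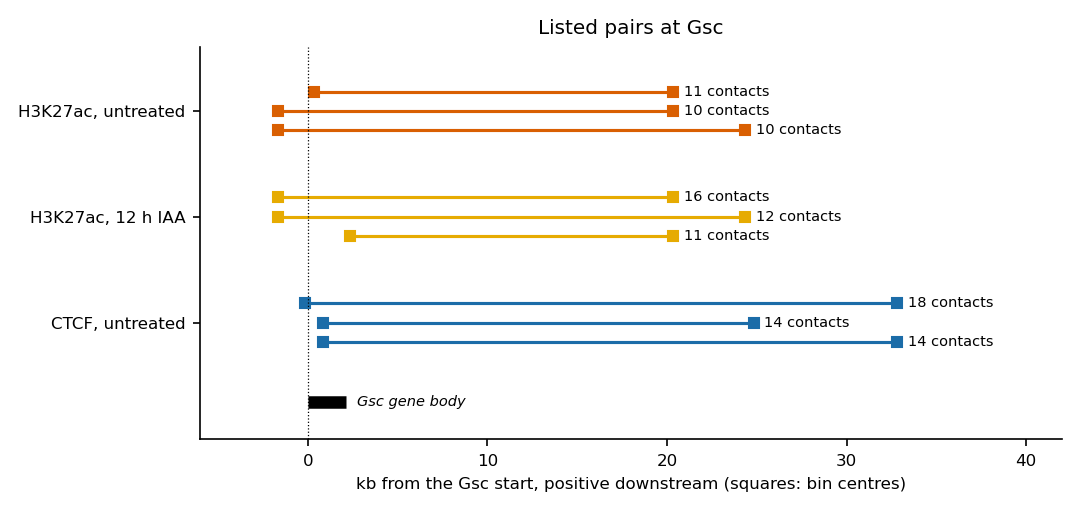
Listed pairs at Gsc in the lists of untreated H3K27ac, H3K27ac after 12 h of IAA and untreated CTCF. The horizontal axis is the distance in kb from the Gsc start, positive downstream, squares are the centres of the paired bins, the black bar is the gene, and the number at each line is its contacts; the H3K27ac partners lie 20 to 26 kb away from their Gsc bins in untreated cells and are reached by 10 to 16 contacts over the pairs called in both lists.

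The remaining changes after IAA were changes in which genes were listed. The 7 members with a single untreated pair had no H3K27ac pair after IAA, or 0 of 7. That allows a share of up to 42.9%, taken as 3 divided by the number of genes and not as a Wilson limit. The call for Sox1 rests on the 5 kb window, since its nearest H3K27ac bin after IAA lay 6.71 kb from a start. Of the 1535 protein-coding genes with exactly 1 untreated pair of 8 to 12 contacts, 710 (46.3%) had a pair after IAA. Over all genes with untreated pairs the shares were 12.5% of the 8 members and 80.0% of 8456 protein-coding genes. Counted by pairs, 2 of the 10 member pairs were called again (20%, 95% Wilson interval 5.67 to 51.0), against 42.9% of all untreated pairs. Shares at matched contact counts are given beside it, and the part of low counts in the difference was not tested. Of the 15423 untreated pairs with 8 to 12 contacts, 22.7% were called again, and of those at protein-coding starts 22.3%. The interval of the members holds both shares and also the 42.9% of all untreated pairs, so it sets the members apart from none of them. By genes, the shares at matched counts were the 0 of 7 and 46.3% above.

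Pairs listed after IAA only were found at 4 members, Dlx1, Dlx2, Gata4 and Nkx6-1 (8.70%, against 4.25% of protein-coding genes). Which genes these are depends on the way of counting. With a q-value of 0.01 or less, or with at least 10 contacts, Dlx1 and Dlx2 were not listed after IAA. Gata4 was not listed with the gene's outermost start alone or with the start bin alone. A window of 10 kb added En2 and Gata6. Dlx1 and Dlx2, neighbouring homeobox genes of the forebrain, shared 1 pair of 9 contacts (4.12 to 17.1) that joined chr2:71528001-71530000 and chr2:71544001-71546000, at their 2 starts. Gata4, a zinc finger factor of endoderm and heart, had 12 contacts within its own gene. Nkx6-1, a homeobox factor of the ventral neural tube and pancreas, had 11 contacts within its own gene. None of these pairs was in the untreated list, so no ratio can be given for them. The 6 IAA pairs at members had 9 to 16 contacts, and the 10 untreated ones had 8 to 12.

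The CTCF and RAD21 pairs of the members were longer than their H3K27ac pairs. Contacts per pair are not on the same scale across these lists, which differ in bin size, antibody and depth. The 92 CTCF pairs had 6 to 82 contacts with a median of 14, against 15 at protein-coding starts, and 1700 contacts in all. The median span was 173 kb, against 127 kb at protein-coding starts, with a range of 6 to 1027 kb. The 56 RAD21 pairs had 7 to 87 contacts and a median span of 172.5 kb, against 106 kb. Both bins lay at protein-coding starts in 13.0% of the member CTCF pairs, against 32.3% of those at protein-coding starts, and in 21.4% against 31.4% of RAD21 pairs. These pairs share bins and include some within 1 gene, and the difference was not tested. Of the 92 CTCF pairs, 36 (39.1%) were also in the RAD21 list, against 33.8% at protein-coding starts. The same 36 were 64.3% of the member RAD21 pairs, against 69.2%.

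CTCF binding sequences were read at the member bins to see how the sites at the most contacted genes are oriented. The 14-base CTCF core was searched on both strands with at most 1 mismatch, a choice made after these data had been seen. It was found in 15 of 46 member CTCF bins (32.6%), in 34.1% of 14784 CTCF bins at protein-coding starts and in 41.7% of all CTCF bins. In the same bins moved by 10000 bp it was found in 5.15%. Of the 25 members with CTCF pairs, 13 had a core in such a bin. A match is a description of the sequence and not a measured binding site. The sites at the 3 members with most CTCF contacts are shown here on mm10, each 5′ to 3′ on its own strand with the core in capitals, and with the site in the bin of the strongest partner where it has one.
Gata2, chr6:88189624-88189653, forward strand: acgcgaagCCGCCAGGTGGCGCtctgaacc
Gata2 partner, chr6:88242760-88242789, reverse strand: cctgggctCCGACAGAGGGCAGgcacggcc
Foxc1, chr13:31801350-31801379, forward strand: agcagcggGCGGCAGGGGGCGCtcggagca
Foxc1 partner, chr13:31956771-31956800, reverse strand: gggcaccaCCAGCAGGTGGCGCcgtctcct
Pax2, chr19:44754848-44754877, reverse strand: tctcaaggCCTGTAGATGGCGCtcccgggt
Pax2, second core, chr19:44756241-44756270, forward strand: ggcattggCCGGTGGATGGCAGggctgggc
In the Gata2 and Foxc1 pairs the member site lies to the left on the forward strand and the partner site to the right on the reverse strand, so each pair of cores points inward. All CTCF partners of Pax2 lie to its left. The first Pax2 core, in a bin with 5 of the pairs and 140 contacts, is on the reverse strand and points toward them. The second, in a bin with 2 pairs and 47 contacts, is on the forward strand and points away from them.

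Pax2, a paired-box factor of kidney, eye and midbrain, had the most CTCF contacts of the set, with 13 pairs and 343 contacts (308 to 381). Fewer contacts were listed at 93.2% of the protein-coding genes with CTCF pairs. All 13 pairs ran upstream, to 5 partner bins, and 5 adjacent or nearby Pax2 bins shared the partner chr19:44582001-44583000, outside annotated genes. The strongest of them joined chr19:44754001-44755000 to it over 172 kb with 67 contacts (51.9 to 85.1), which was 11.9 times the predicted number. The bins that hold Pax2 starts themselves had 38 and 29 contacts with it. Pairs of neighbouring bins with 1 partner are not independent. In the RAD21 list Pax2 had 9 pairs and 128 contacts (107 to 152), 25 of them in the same strongest pair. It also had 2 RAD21 pairs with 9 contacts each in the opposite direction, to a bin 131 and 128 kb downstream that was not among its CTCF partners.

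Gata2, a zinc finger factor of blood progenitors and trophoblast, followed with 13 CTCF pairs and 306 contacts (273 to 342), whose interval overlaps that of Pax2. It ranked first in the RAD21 list, with 16 pairs and 329 contacts (294 to 367), and 98.0% of protein-coding genes with RAD21 pairs had fewer. In the CTCF list, 11 of its pairs ran from 1 bin, chr6:88189001-88190000, which had the highest coverage of all member CTCF bins, 6855. It lies in an exon of the non-coding gene Gm38708, 3891 bp from the nearest Gata2 start. Its strongest partner was chr6:88242001-88243000, in an intron of Dnajb8, 53 kb away, with 82 CTCF contacts (65.2 to 102) and 87 RAD21 contacts (69.7 to 107). These were 7.99 and 12.6 times the predicted numbers. A bin 311 kb away, outside annotated genes, had 58 CTCF and 35 RAD21 contacts, at 19.6 and 14.3 times the predicted number. The single upstream partner, 65 kb away, had 41 and 32 contacts.

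At Gata2, the 2 lists differed both at the gene itself and among the distant partners. The RAD21 list held pairs to the Dnajb8 bin from chr6:88193001-88194000, which holds the outermost Gata2 start, and from chr6:88194001-88195000 and chr6:88198001-88199000 inside Gata2. These pairs had 12, 21 and 16 contacts. None of the 3 was in the CTCF list. Counting only the bin that holds a start, Gata2 therefore kept RAD21 pairs and had no CTCF pair. Because the strongest CTCF bin of Gata2 was not at its start, and that of Foxc1 lay 4633 bp from a start, both genes count as having CTCF pairs through the 5 kb window. From that strongest Gata2 bin, RAD21 partners 257, 294, 314 and 329 kb away, with 11, 10, 8 and 14 contacts, were not in the CTCF list. CTCF partners 54, 242, 642 and 672 kb away, with 14, 18, 8 and 7 contacts, were not in the RAD21 list.

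Foxc1, a forkhead factor of somites, eye and vessels, had 7 CTCF pairs with 173 contacts (148 to 201) and 9 RAD21 pairs with 140 contacts (118 to 165). Its main bin, chr13:31801001-31802000, had a coverage of 5637 and held 6 of the CTCF pairs, all to the right. The strongest, to chr13:31956001-31957000 in an intron of Gmds, 155 kb away, had 64 CTCF contacts (49.3 to 81.7) and 30 RAD21 contacts (20.2 to 42.8). Further partners lay 472, 610, 692 and 880 kb away, with 19, 30, 9 and 20 CTCF contacts and 9, 16, 8 and 13 RAD21 contacts. The longest of these was at 15.4 times its predicted CTCF count. The RAD21 list added a partner 413 kb away with 20 contacts that was not in the CTCF list. Foxc1 had no H3K27ac pair in either list.

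Sox1 had 5 CTCF pairs with 127 contacts (106 to 151) and 6 RAD21 pairs with 123 contacts (102 to 147), all of them downstream. From chr8:12391001-12392000, 3 partners stood close together in introns of the non-coding gene D630011A20Rik, 164, 170 and 173 kb away. They had 23, 38 and 28 CTCF contacts and 34, 32 and 24 RAD21 contacts. The order of these partners differed between the lists. The interval was 26.9 to 52.2 for the 38 CTCF contacts and 23.5 to 47.5 for the 34 RAD21 contacts. Each interval holds the next count in its own list, 28 and 32, so the strongest of these partners cannot be named in either list. A bin 216 kb away had 29 and 15 contacts. The single untreated H3K27ac pair of Sox1 started at an overlapping bin and ran the other way, 6 kb upstream. No core was found in a CTCF bin of Sox1.

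**Figure D5:**
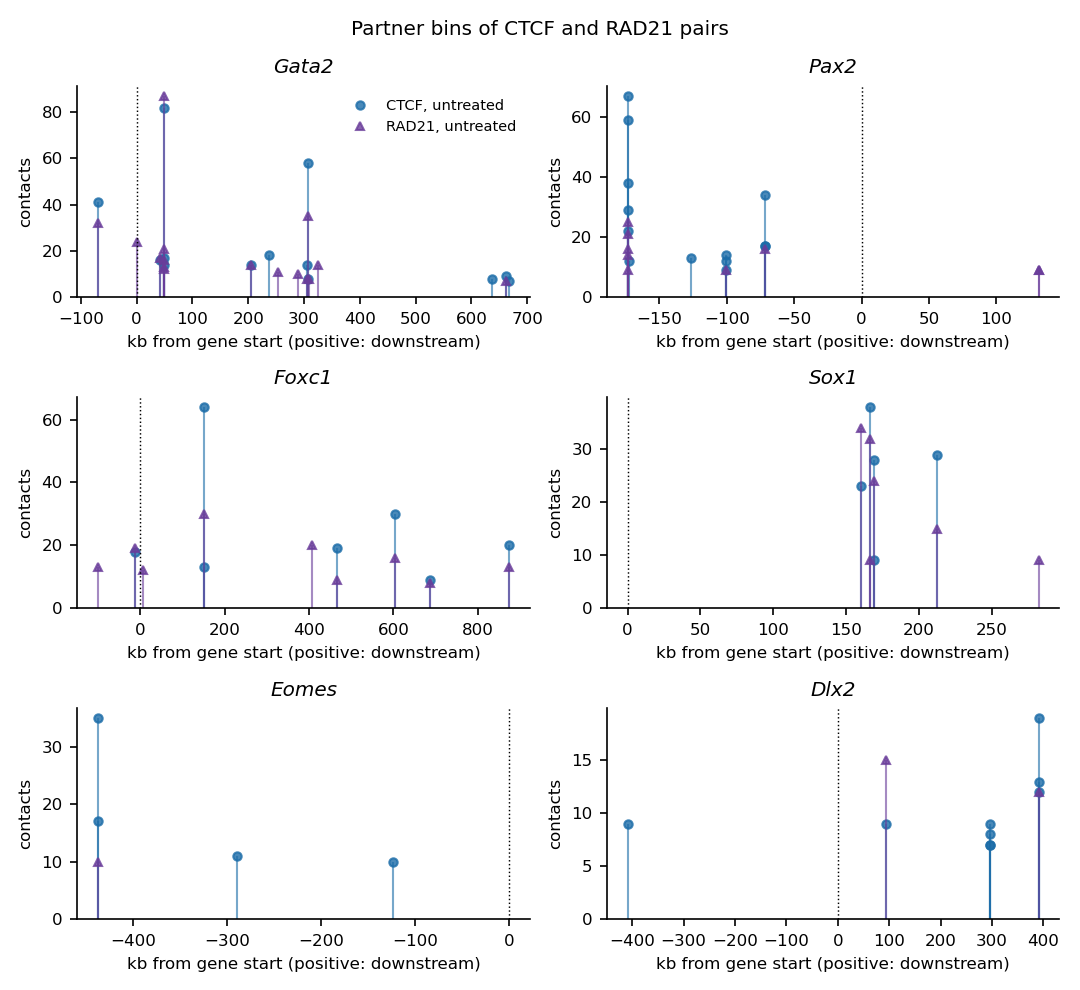
Partner bins of the CTCF (circles) and RAD21 (triangles) pairs of Gata2, Pax2, Foxc1, Sox1, Eomes and Dlx2, with contacts on the vertical axis and the distance in kb from the gene's start on the horizontal axis, positive downstream. Each mark is a listed pair and the dotted line is the start; all CTCF partners of Pax2 and Eomes lie upstream, all of Sox1 downstream, and the highest marks are the 82 CTCF and 87 RAD21 contacts of Gata2.

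The next members by CTCF contacts were neural factors, Eomes and Tbx1. Dlx2 had 9 pairs with 93 contacts (75.1 to 114), 8 of them downstream, the strongest over 393 kb with 19 contacts. In the RAD21 list that pair had 12 contacts, and the strongest Dlx2 pair there had 15, with a bin within 5 kb of a start of Metap1d. Neurog2, a proneural helix-loop-helix factor, had 4 pairs with 79 contacts (62.5 to 98.5) and no RAD21 pair. Of these, 36 contacts were in a pair spanning 6 kb, at 1.74 times the predicted number. Neurog1, its relative, had 71 contacts (55.5 to 89.6) from 2 adjacent bins to 1 partner 55 kb downstream, and 15 RAD21 contacts with it. Eomes had 73 contacts (57.2 to 91.8) in 4 pairs, all upstream. Its strongest pair, with 35 contacts (24.4 to 48.7) over 439 kb, ended within 5 kb of a start of Azi2, and had 10 RAD21 contacts.

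Tbx1, a T-box factor of the pharyngeal arches, had 64 CTCF contacts (49.3 to 81.7) from 4 bins, all with 1 bin within 5 kb of a start of Txnrd2. The strongest spanned 148 kb with 25 CTCF and 11 RAD21 contacts. Nkx2-1, a homeobox factor of thyroid, lung and ventral forebrain, had 60 CTCF contacts (45.8 to 77.2) in 5 pairs. Its strongest spanned 483 kb with 21 CTCF and 19 RAD21 contacts, at 12.7 and 13.4 times the predicted numbers. By counting error, Pax2 and Gata2 stood clear of the rest and Foxc1 of the genes from Dlx2 down, while neighbours from Dlx2 to Nkx2-1 had overlapping intervals. The sites at these members, with their cores in capitals, show the strand that each faces.
Dlx2, chr2:71548016-71548045, reverse strand: tacactgtCCACCAGGTGGCGCcacaaagc
Dlx2 partner, chr2:71155676-71155705, forward strand: agcaatagCCACCAGGTGGCAGcaacccca
Tbx1, chr16:18591854-18591883, reverse strand: ggaggcagCCGCCAGGGGGCTGagagaggg
Tbx1 partner, chr16:18443653-18443682, forward strand: cagagtggCCACGAGAGGGCGGcagaggct
Nkx2-1, chr12:56541273-56541302, reverse strand: attggtgaCCAGTAGAGGGCGCcgcggatc
Nkx2-1 partner, chr12:56058657-56058686, forward strand: ccccgcggCCAGCAGATGGCGCacttgcac
Eomes, chr9:118479228-118479257, reverse strand: cggggaatCCACCGGGGGGCAGcatggagc
Neurog2, chr3:127634257-127634286, forward strand: gccggtggCCTCCAGGGGGCGCtcttcacg
Neurog2 partner, chr3:127640023-127640052, reverse strand: gacagcgaCCGCCCGGTGGCGCtgcggaga
The Dlx2, Tbx1 and Nkx2-1 partners lie to the left with cores on the forward strand, so these cores also point inward. The Neurog2 core and that of its strongest partner, 6 kb to the right, point inward as well, while Neurog2 had 2 pairs on each side. The strongest partner bin of Eomes held cores on both strands, so no site is shown for it.

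Over all member pairs, cores mostly faced the partner. Of 49 member pair ends with a core on 1 strand only, 42 pointed toward the partner (85.7%), against 79.8% of 19648 pair ends at protein-coding starts. Of the ends whose partner bin also had such a core, 20 of 25 were in convergent pairs (80%), against 64.5% of 9986. A pair with both bins at protein-coding starts counts once for each end. These ends share bins, since Gata2 and Pax2 alone give many of them, so the shares are descriptions and were not tested. Of the 13 members with at least 3 CTCF pairs, 6 had all partners on 1 side (46.2%), against 38.8% of protein-coding genes. Eomes and Pax2 looked upstream, and Dlx5, Gsc, Sox1 and Tbx1 downstream. In the RAD21 list the members with all partners on 1 side were Nkx2-1, Sox1 and Tbx1, or 3 of 6 (50%), against 59.3%.

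The lower CTCF counts ended the range. Gsc and Nkx2-2 had 46 contacts each, Otp 40, Dlx5 39, Lhx2 35 and Foxa2 23. A Dlx5 pair of 1027 kb was the longest CTCF pair of the set, and the strongest Dlx5 pair spanned 880 kb to a bin in an intron of Dync1i1 with 22 CTCF and 13 RAD21 contacts, at 17.2 and 10.8 times the predicted numbers. T, also called Brachyury, had 13 contacts with a bin 11 kb upstream in an exon of T2. Sox17, Pax9, Lhx3, Gata4, Cdx2, Foxa1, Nkx6-1 and Lhx9 had 1 pair each, with 6 to 13 contacts. En2, a homeobox factor of midbrain and hindbrain, had 1 RAD21 pair with 9 contacts and was the only member with a RAD21 pair and no CTCF pair.

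Later-lineage starts also lay between the ends of many CTCF and RAD21 pairs. These counts include a gene's own pairs where they cross its start, as at Dlx5, so they are not separate from the pairs above. At least 1 CTCF pair spanned the start of 41 of the 46 genes (89.1%), against 72.8% of protein-coding genes, with a median of 7.5 and 3 spanning pairs. For RAD21 the shares were 69.6% and 55.0%, with medians of 2 and 1. For untreated H3K27ac pairs the order was reversed, at 23.9% and 31.9%, and after IAA at 10.9% and 27.9%. The most spanned were Pax2 with 41 CTCF pairs, Tbx4 with 29 and Gsc with 28, although Tbx4 had no pair at its own start. Foxa1, Gata6, Isl1, Irx3 and Irx5 were spanned by none.

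The promoters of the members were CpG-rich, a known trait of genes of this kind that choosing them by name brings along. RefSeq promoter sequences on GRCm38.p6, 250 bases before to 50 after a start, were matched for 35 of the 46 genes. Their median number of CG pairs was 23, against 8 over all 27025 genes with such sequences. That is a different set from the 21951 protein-coding genes used elsewhere. The median GC content was 63.7%, against 53.3%. A gene with several promoters entered with its highest value of each measure. The ratio of observed to expected CG was above 0.6 at 29 of 35 (82.9%), against 38.3%. Members with and without CTCF pairs had median counts of 25.5 and 22, GC contents of 63.2% and 63.7%, and ratios above 0.6 at 19 of 22 (86.4%) and 10 of 13 (76.9%), with no test between them. The CTCF core was found in 2 of 44 member promoters (4.55%), those of Nkx2-1 and Tbx1, against 3.85% of 32851 promoters. The Gsc promoter is shown because Gsc was the only member with H3K27ac pairs in both lists, with each CG in capitals.
Gsc promoter, chr12:104473187-104473486, reverse strand: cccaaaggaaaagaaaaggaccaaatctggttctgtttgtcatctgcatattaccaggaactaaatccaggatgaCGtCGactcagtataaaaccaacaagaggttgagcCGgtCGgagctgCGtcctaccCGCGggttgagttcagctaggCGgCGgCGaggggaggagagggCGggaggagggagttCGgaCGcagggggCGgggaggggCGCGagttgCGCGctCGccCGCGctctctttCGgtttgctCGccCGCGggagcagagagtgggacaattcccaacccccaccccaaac
It holds 25 CG pairs in 300 bases, with a GC content of 60.3%.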

How the data were processed

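MNase HiChIP libraries were grouped by antibody and IAA treatment as the labels give them, and each group had 1 deposited list pooled over its libraries. The authors' contact counts are whole numbers that were not normalised, per the file headers. The deposited tables also give, per the file headers, the coverage of each bin and the expected count of contacts from a model with coverage bias. They hold the model's probability as a fraction, and a p-value and a q-value for each pair, all deposited by the authors, with q-values under 0.05. Per the submitters' processing notes, the build was mm10 and the tools included Trim Galore, BWA, MACS2 and deepTools; versions are not given in the sources used here. The names of the deposited lists, which the labels repeat, point to FitHiC for the interaction calls, with no version or settings beyond the q-value. No anchor lay beyond an mm10 chromosome end. The lists keep only pairs that passed the authors' threshold, and the part of coverage in which loci are listed was not tested.

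Transcript starts came from GENCODE M21, and the 2 H3K27ac lists were joined by identical bin pairs. Contacts of shared pairs were compared with the exact two-sided binomial test over all shared pairs (scipy 1.17.1, pandas 2.3.3), with Benjamini-Hochberg adjustment, and the test was checked on simulated data. The rule for genes given in full took up to 10 with most untreated H3K27ac contacts (8 had any), the 10 with most CTCF contacts, the 5 with most RAD21 contacts and those with at least 20 contacts in shared pairs. Values of other members, such as T, Dlx5, En2, Foxa2, Gata4 and Nkx6-1, were added after they had been seen. The members, gene lists and tests were chosen with earlier results of these data known. Alternatives covered the window, the starts used, the q-value, the contact minimum, a tolerance of 1 bin and the scaling.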

Additional observations from a re-analysis of the deposited data

How the results depend on the processing

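Of 36 values recomputed under other settings, 25 stayed within 1.5 times the main count or the counting interval, and 11 moved. The order against all protein-coding genes turned for RAD21 in 3 settings, namely the 10 kb window, the gene's outermost start alone (28.3%, 25%) and a q-value of 0.01 or less (26.1%, 25.4%), and for CTCF with the start bin alone. With only the bin that holds a start, 5 members had untreated H3K27ac pairs (10.9%, against 33.0% of protein-coding genes), 3 had H3K27ac pairs after IAA (6.52%, 29.6%), 11 CTCF pairs (23.9%, 25.8%) and 7 RAD21 pairs (15.2%, 17.5%), and 0% of 5 untreated pairs were called again, with a Wilson upper limit of 43.4%; with no shared pair left, no ratio could be given. A 10 kb window gave 8 members after IAA (17.4%, 37.7%) and 20 with RAD21 pairs (43.5%, 38.9%). A q-value of 0.01 or less gave 3 untreated (6.52%, 32.9%) and 3 after IAA (28.8% of protein-coding genes), as did at least 10 contacts (33.8% and 31.5% of protein-coding genes). With each bin free by 1 bin, 30% of member pairs were called again, against 65.7% of all pairs, and with at least 10 contacts 40% of 5, against 46.9%. The log2 ratio of the shared Gsc pairs ran from 0.26 (model totals, a shift of -0.25 for all pairs) to 0.52, and 0 shared member pairs passed the test in any setting run. Over all shared pairs, model totals gave 60 calls in place of 21. No paired analysis was possible because each group offers a single merged list, which also kept the omission of single replicates from being tried. Counts of 8 to 16 contacts per H3K27ac pair limit what these lists can show.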
